A study of Homo sapiens with 4 samples.

Results

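Long intergenic noncoding RNAs (lincRNAs) expressed in senescent WI-38 fibroblasts were examined with and without G3BP1. Members were the genes whose category in the deposited table contains lincRNA and not protein_coding and whose mean over the 4 libraries was at least 20 normalized reads (reads counted in a gene, scaled by the size factor of its library). Of 58219 genes, 7710 carried the lincRNA category, 5236 of these had no read in any library, and 238 reached the mean of 20. After 19 well-known transcripts, among them the snoRNA hosts named SNHG, and 9 genes on chromosomes X and Y were left out, 210 lincRNAs remained. They were thus chosen by the measured mean over all libraries, and their abundance is a description. For 164 of them the mean was at least 20 in both groups, for 23 it was under 20 in siCTL, and for another 23 it was under 20 in siG3BP1.

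WI-38 is an established line of normal human lung fibroblasts. All cells were irradiated with 10 Gy, which makes them senescent, and were harvested after 8 days. One group received an siRNA against G3BP1, an RNA-binding protein of stress granules (siG3BP1), and the other a scrambled siRNA (siCTL). Total RNA was sequenced from 2 libraries per group, A and B. Whether A and B came from separate cultures is not given in the labels, so p-values rest only on the spread among these libraries. That spread was taken from the trend over all genes at the same level, not from the gene's own libraries. In bulk RNA, fewer cells with a transcript and less of it per cell cannot be told apart.

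G3BP1 itself was at 2675 and 2522 normalized reads under siCTL and at 201 and 271 under siG3BP1 (library A first, here and below). The libraries held between 16944404 and 22745000 reads counted in genes. All 8 fibroblast markers were expressed, no epithelial or immune marker reached the mean of 10 needed for testing, and of 5 endothelial markers only TEK and VWF did. The summed endothelial markers were at 4478 and 3016 in siCTL and at 1006 and 1471 in siG3BP1, and mitochondrial reads took 2.68% and 2.20% of siCTL libraries and 3.18% and 3.51% of siG3BP1 libraries. The part of either in the results was not tested.

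LincRNAs are transcribed by RNA polymerase II from their own loci between protein-coding genes and are mostly capped, spliced and polyadenylated, but they encode no known protein. Some act as RNAs, by binding proteins or other RNAs. Others are precursors from which microRNAs are cut, and in a further set the act of transcription or the DNA of the locus matters for a neighbouring gene. Most have no known function, and 101 of the 210 members still carry the name of a sequencing clone.

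The sequences that give several members their known roles are shown first. Of the members with a strand in Gencode 44, 13 contain annotated microRNA genes on that strand (RefSeq, GRCh38.p14). CARMN, on chromosome 5, contains miR-143 and miR-145, which are known from smooth muscle and mesenchymal cells. MIR100HG, on chromosome 11, contains miR-100, let-7a-2 and miR-125b-1, a cluster conserved among animals. MIR34AHG, on chromosome 1, contains miR-34a, a target of p53. Mature sequences are given 5′ to 3′, with the seed (bases 2 to 8, the main contact with target RNAs) in capitals. No seed is shared among these. The mature microRNAs were not measured in this experiment.
hsa-miR-143-3p (CARMN, chr5:149428978-149428998, + strand): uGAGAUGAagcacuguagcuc
hsa-miR-145-5p (CARMN, chr5:149430661-149430683, + strand): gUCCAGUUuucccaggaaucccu
hsa-miR-100-5p (MIR100HG, chr11:122152275-122152296, - strand): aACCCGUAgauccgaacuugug
hsa-let-7a-5p (MIR100HG, chr11:122146568-122146589, - strand): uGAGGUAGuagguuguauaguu
hsa-miR-125b-5p (MIR100HG, chr11:122099809-122099830, - strand): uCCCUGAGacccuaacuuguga
hsa-miR-34a-5p (MIR34AHG, chr1:9151735-9151756, - strand): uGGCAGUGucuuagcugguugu

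NORAD, an abundant cytoplasmic lincRNA that holds PUMILIO proteins through many copies of their recognition element, is a single exon on chromosome 20. The element TGTANATA was counted on the transcribed strand in the exons of the 197 members with a Gencode 44 gene model. It was present in 56 of them (28.4%). NORAD held 15 copies, 10 of them TGTATATA, and HCG11, a single-exon lincRNA on chromosome 6, held 16 (10 of them inside the locus that the deposited table gives). The next member, CASC15, held 7 in exons 36587 bases long. The elements of NORAD and HCG11 lie in related sequence, shown here as matched windows of 28 bases (GRCh38, RNA strand, element in capitals), each pair differing at 1 base. Exact words of 31 bases shared with HCG11 make up 12.2% of those in NORAD, so reads of either may be assigned to the other where the sequences are identical.
NORAD chr20:36049119-36049146, - strand: aataccacttTGTAAATAtctttttgct
HCG11 chr6:26523527-26523554, + strand: aataccaattTGTAAATAtctttttgct
NORAD chr20:36048905-36048932, - strand: tgttttgctcTGTATATAgtatatataa
HCG11 chr6:26523740-26523767, + strand: tgttttgctcTGTATATAgtgtatataa
NORAD chr20:36047351-36047378, - strand: aatgctactgTGTATATAatggaaaact
HCG11 chr6:26525279-26525306, + strand: aatactactgTGTATATAatggaaaact

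To ask which lincRNAs changed with G3BP1 depletion, siG3BP1 was compared with siCTL by limma on log2(value + 0.5), over all 13422 genes with a mean of at least 10 and with Benjamini-Hochberg adjustment at a threshold of 0.05. Of the 210 lincRNAs, 31 fell (14.8%), 37 rose (17.6%) and 142 did not pass the test. Over all tested genes 30.5% were lower and 25.9% were higher, and both member shares lay below this background. Among the 164 members at 20 or more in both groups, 14 fell and 30 rose. The groups did not overlap for 58 members that were lower in both siG3BP1 libraries and for 96 that were higher, that is 27.6% and 45.7%, against 40.5% and 42.8% of all tested genes. The median log2 fold change was 0.32 over the members (interquartile range -0.52 to 0.74), 0.037 over all tested genes, -0.072 over protein-coding genes and 0.58 over 307 antisense noncoding RNAs of the same minimum mean. The difference between these groups of genes was not tested.

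These calls depended on single libraries and on scaling. Without siCTL A 1 member was lower and 1 higher, and without siCTL B none passed by limma, with 27 members at an unadjusted p under 0.05. Over all tested genes 0.946% and 0.127% were called in these fits. Without siG3BP1 A 17 were lower and 11 higher, beside 42.7% of all tested genes called, and without siG3BP1 B 46 were lower and 55 higher, beside 71.7%. Each of these fits leaves 1 group with a single library, which is assumed to vary like the other group. After quantile normalization 22 were lower and 61 higher, beside 54.1% of all tested genes called. Standard errors followed the trend over all genes at the same level, not the spread of the gene's own libraries, and ranged from 0.33 to 0.55 on the log2 scale.

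**Figure D1:**
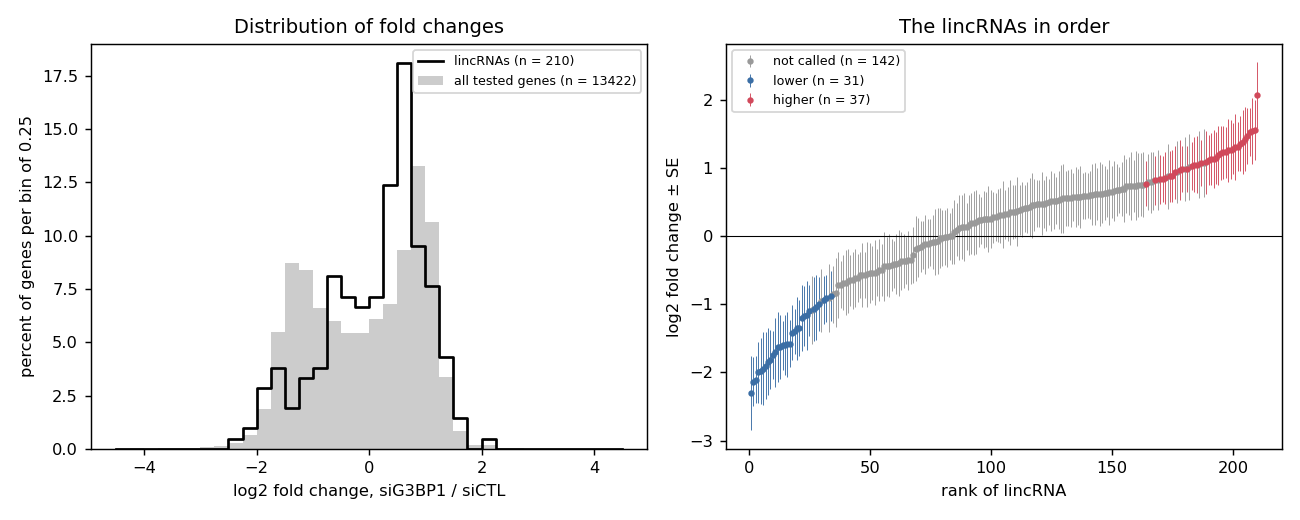
Left, percent of genes in bins of 0.25 of the log2 fold change (siG3BP1 over siCTL), for the 210 lincRNAs (line) and all 13422 tested genes (grey bars). Right, the lincRNAs in order of their log2 fold change with the standard error as bars, coloured by the limma call (31 lower, 37 higher, 142 not called).

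The fold change moved with base composition. Across the 197 members with a value, the Spearman rho between log2 fold change and exonic GC content was 0.49, against 0.80 across 13350 tested genes (genes of 1 set of libraries share their depth and base composition). All tested genes were split by exonic GC content into 5 classes of equal size. In the lowest class (29.0% to 40.9%), 9 of 20 members fell and 1 rose, beside 80.1% and 0.749% of all tested genes there. In the highest class (57.4% to 85.5%), 0 of 20 members fell and 7 rose, beside 0.262% and 67.3% of all. The siG3BP1 libraries also differed from each other. Library siG3BP1 A was under siG3BP1 B for 28 of the 31 members that fell and above it for 34 of the 37 that rose. Among the 142 not called it was under for 57 and above for 85. In siCTL, A was under B for 22 of the 31 that fell and for 14 of the 37 that rose. The calls rest on these same values, and the share over all tested genes was not counted. After each library's trend with GC content was removed, in a fit without a replicate block, 0 of 197 members passed (limma, smallest adjusted p 0.0628, 66 members at an unadjusted p under 0.05), beside 0.00749% of all tested genes, and the median log2 fold change of the members was 0.23. The part of GC content in each call was not tested. The GC-corrected log2 fold change is given beside that of each named member that has one.

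**Figure D2:**
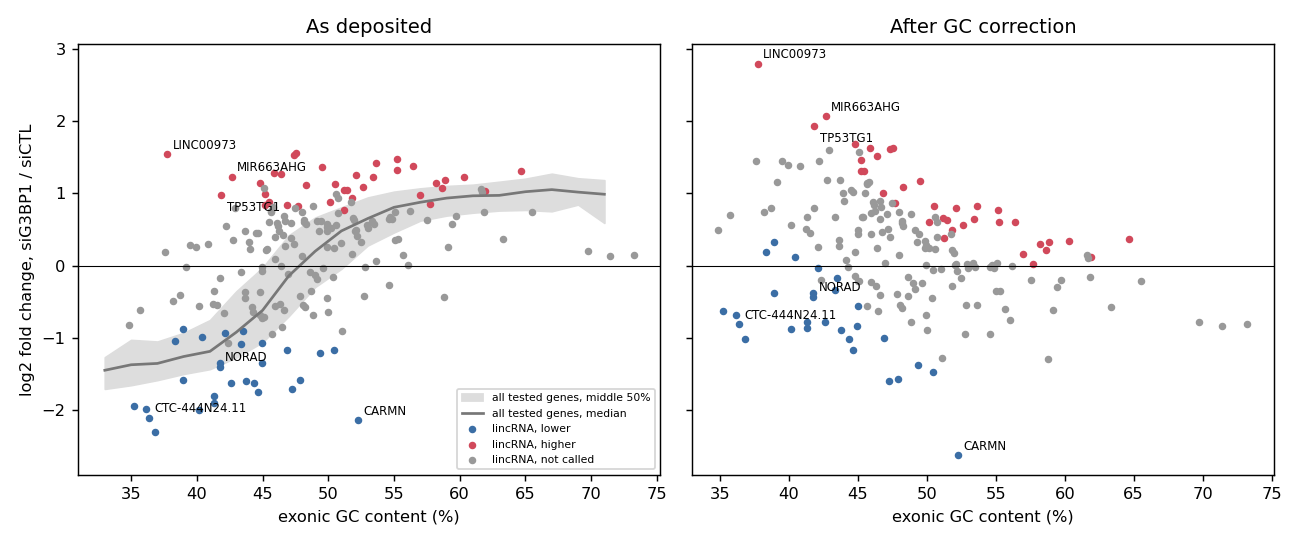
Log2 fold change (siG3BP1 over siCTL) against exonic GC content in percent for 197 lincRNAs, as deposited (left) and after removal of each library's GC trend (right), coloured in both by the call on the deposited values. The grey line and band are the median and interquartile range of all tested genes in steps of GC content. CARMN lies far below the band, and LINC00973, MIR663AHG and TP53TG1 lie above it.

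The most abundant lincRNAs were few. LRRC75A-AS1, FENDRR and NORAD together held between 41.5% and 46.3% of all member reads in a library, while the members together took 0.240% and 0.231% of siCTL libraries and 0.185% and 0.218% of siG3BP1 libraries. LRRC75A-AS1, which Gencode 44 lists as the snoRNA host SNHG29, was at 5962 and 5049 normalized reads under siCTL and at 9888 and 8904 under siG3BP1. Both siG3BP1 libraries were above both siCTL libraries, a rise of 0.77 on the log2 scale (SE 0.33, limma adjusted p = 0.0364). Its locus overlaps the protein-coding gene LRRC75A, so its level is uncertain. After GC correction the value was 0.38. The call was lost without the filter on low values (limma adjusted p = 0.104), after quantile normalization (0.40, limma adjusted p = 0.181) and by edgeR (adjusted p = 0.0763). BAIAP2-AS1, which starts beside BAIAP2 on the opposite strand, was at 348 and 372 in siCTL and at 608 and 551 in siG3BP1, without overlap, but did not pass (log2 fold change 0.68, SE 0.34, limma adjusted p = 0.0702, or -0.19 after GC correction).

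NORAD, whose PUMILIO elements are shown above and which is known to protect genome stability, fell. It was at 4573 and 4589 under siCTL and at 1309 and 2307 under siG3BP1. The siCTL libraries were nearly equal and the siG3BP1 libraries were clearly lower and apart from each other, a log2 fold change of -1.40 (SE 0.33, limma adjusted p = 0.000311) that was -0.43 after GC correction. HCG11, chosen for its elements after its values were seen, was at 76.6 and 71.1 in siCTL and at 22.0 and 37.7 in siG3BP1. Its log2 fold change was -1.34 (SE 0.41, limma adjusted p = 0.00395), and -0.37 after GC correction. Their exonic GC contents are 41.8% and 41.7%, in a range where most tested genes were lower.

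CYTOR and MIR4435-2HG, paralogous lincRNAs on chromosome 2, were both higher in siG3BP1. CYTOR, also known as LINC00152 and linked to the cytoskeleton, was at 978 and 818 under siCTL and at 2024 and 1276 under siG3BP1, with no overlap. Its rise was 0.85 (SE 0.34, limma adjusted p = 0.0248), and 1.31 after GC correction. The call was lost without siG3BP1 A (0.51, limma adjusted p = 0.0626). MIR4435-2HG was at 1306 and 1139 in siCTL and at 2201 and 1551 in siG3BP1, a log2 fold change of 0.60 that did not pass (SE 0.34, limma adjusted p = 0.111), or 1.01 after GC correction. Words of 31 bases found in MIR4435-2HG make up 62.7% of those in CYTOR, so the division of reads between both is uncertain, and CYTOR also overlaps the member LINC01943. The same holds for LINC00665 and LINC01535 on chromosome 19, named after their values were seen, since 51.5% of the words of LINC01535 occur in LINC00665. LINC01535 was at 21.6 and 23.9 in siCTL and at 64.9 and 47.5 in siG3BP1 (log2 fold change 1.27, SE 0.43, limma adjusted p = 0.00924, or 1.52 after GC correction).

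**Figure D3:**
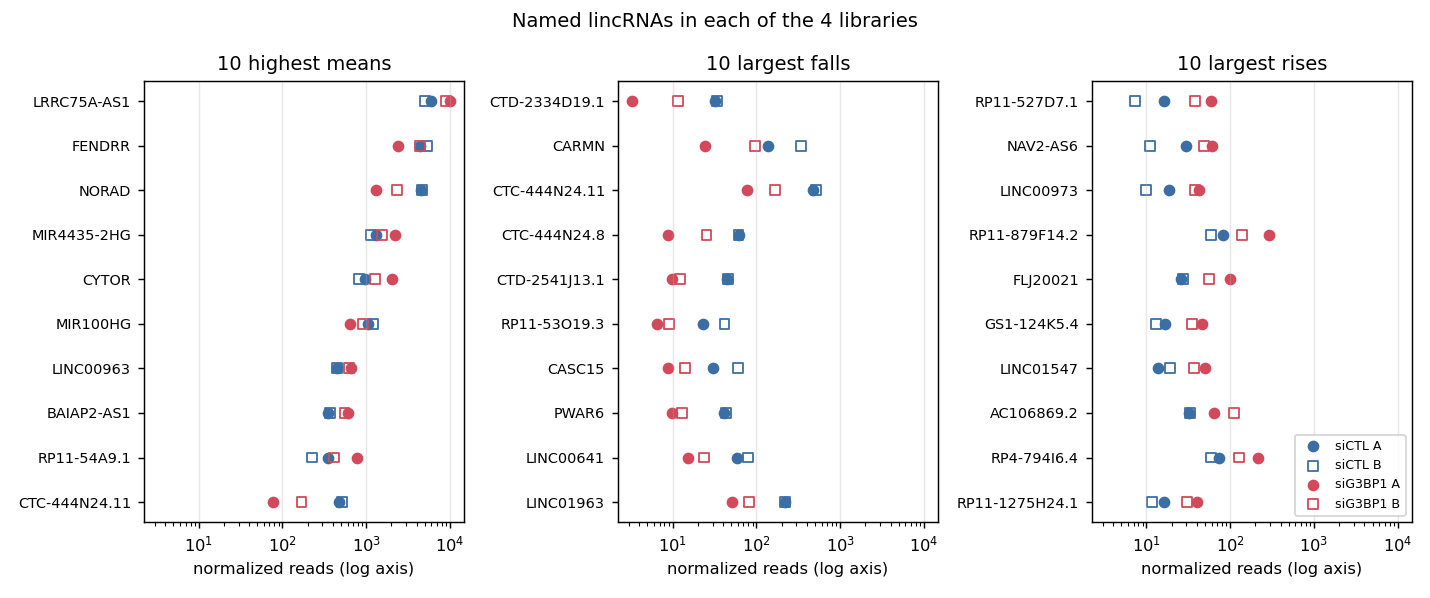
Normalized reads (log axis) in siCTL A and B (blue) and siG3BP1 A and B (red), filled circles for A and open squares for B. Shown are the 10 members with the highest mean, the 10 largest falls and the 10 largest rises. In the falls and rises the groups do not overlap, which the choice of genes fixes.

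Among the microRNA hosts, CARMN stood out by its size. CARMN, a lincRNA of cardiac and smooth muscle development in which miR-143 and miR-145 lie, was at 137 and 338 normalized reads under siCTL. It was at 24.2 and 96.7 under siG3BP1. The groups did not overlap, but within each group library B was well above library A. The log2 fold change was -2.14 (SE 0.36, limma adjusted p = 5.77e-07), the second lowest of all members. Its size depended on single libraries. Without siCTL A CARMN was at -2.79, without siCTL B at -1.49 and without siG3BP1 A at -1.15. Its exonic GC content is 52.3%. CARMN was the only one of 40 members in the class next to the highest (51.0% to 57.4% GC) that was called lower. Others there had negative log2 fold changes but were not called, among them MIAT (-0.90). In that range the median log2 fold change of all tested genes was 0.75. The GC-corrected value of CARMN was -2.63 (limma adjusted p = 0.0925).

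MIR663AHG, host of miR-663a on chromosome 20, was at 44.7 and 34.3 in siCTL and at 131 and 65.5 in siG3BP1. It rose by 1.23 (SE 0.39, limma adjusted p = 0.00527), and by 2.07 after GC correction, at an exonic GC content of 42.7%. The other 5 hosts on the list did not pass the test. MIR100HG was at 1059 and 1201 in siCTL and at 634 and 918 in siG3BP1, lower in both (log2 fold change -0.56, SE 0.34, limma adjusted p = 0.137), but its GC-corrected value was 0.56, of the opposite sign. MIR4458HG (0.25), MIRLET7BHG (0.36) and MIR34AHG (-0.42) had log2 fold changes close to or below their standard errors of 0.40, 0.40 and 0.38. After GC correction these were 1.39, -0.57 and -0.95. Of all 13 members that contain microRNA genes, 1 fell, 1 rose and 11 did not pass, with a median log2 fold change of 0.25. Over all tested genes 30.5% were lower and 25.9% were higher, with a median of 0.037.

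Of 3 members linked to p53 or DNA damage, 1 fell (NORAD), 1 rose (TP53TG1) and 1 did not pass (MIR34AHG). The background was 30.5% of all tested genes lower and 25.9% higher. TP53TG1, a transcript induced by p53 after DNA damage, was at 176 and 176 under siCTL and at 394 and 309.7 under siG3BP1. The siCTL libraries were nearly equal and both siG3BP1 libraries were higher, a rise of 0.99 (SE 0.34, limma adjusted p = 0.0102). Its exonic GC content is 41.8%, as for NORAD, and its GC-corrected log2 fold change was 1.94 (limma adjusted p = 0.0628). MIR34AHG was at 79.0 and 71.7 in siCTL and at 46.2 and 68.0 in siG3BP1, and overlaps the member LINC01759.

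Of 4 members linked to mesenchyme and fibroblasts, CARMN fell, CYTOR rose, and FENDRR and MIR100HG did not pass. The background was again 30.5% of all tested genes lower and 25.9% higher. FENDRR, which is transcribed away from the lung mesenchyme regulator FOXF1 and is needed for mesoderm development in the mouse, was at 4387 and 5273 under siCTL and at 2422 and 4339.8 under siG3BP1. The siG3BP1 libraries were both lower, but siG3BP1 B lay just under siCTL A. Its log2 fold change was -0.57 (SE 0.33, limma adjusted p = 0.128), and -0.59 after GC correction. FOXF1, whose locus is 1428 bp away, was at 5359 and 6077 in siCTL and at 5925 and 6876 in siG3BP1, with overlap and a log2 fold change of 0.16 (limma adjusted p = 0.685).

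Of 8 other widely studied lincRNAs, 1 fell and 7 did not pass, beside 30.5% of all tested genes lower and 25.9% higher. CASC15, a long locus on chromosome 6 near SOX4, was at 30.3 and 60.1 under siCTL and at 8.80 and 13.9 under siG3BP1. The groups did not overlap, although siCTL B was far above siCTL A, and the log2 fold change was -1.90 (SE 0.49, limma adjusted p = 0.000765), or -0.87 after GC correction. DANCR, known for holding back differentiation, was at 177 and 222 in siCTL and at 335 and 267 in siG3BP1 (log2 fold change 0.59, SE 0.34, limma adjusted p = 0.121, or 0.89 after GC correction). MIAT was at 26.3 and 28.2 in siCTL and at 13.2 and 15.6 in siG3BP1, a log2 fold change of -0.90 that did not pass (SE 0.50, limma adjusted p = 0.108), or -1.28 after GC correction. The groups did not overlap in either, but neither passed the adjusted threshold. LINC00963 (0.50), EPB41L4A-AS1 (0.32), LINC01138 (0.25), LINC00511 (-0.030) and LINC00467 (-0.35) also did not pass. After GC correction they were at 0.024, 1.01, -0.057, -0.23 and 0.67 in the same order. None of the lincRNAs listed as linked to inflammation was a member, 5 of the 14 listed having a row in the table, and no lincRNA listed as encoding a small protein had a row.

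The largest falls were mostly in transcripts poor in GC. CTC-444N24.11, a single exon on chromosome 19 from 57304305 to 57308562, was at 474 and 518 normalized reads under siCTL and at 78.1 and 169 under siG3BP1. It is among the 10 most abundant members, with an exonic GC content of 36.4%, and both siG3BP1 libraries were far below siCTL (log2 fold change -2.11, SE 0.34, limma adjusted p = 1.99e-07, or -0.81 after GC correction). CTC-444N24.8, a single exon on the same chromosome with the same clone name, was at 61.5 and 61.3 in siCTL and at 8.80 and 25.4 in siG3BP1. It was 3.99-fold lower on the fitted log2 scale (SE of the log2 fold change 0.45, limma adjusted p = 0.000145), with a log2 fold change of -0.87 after GC correction. The lowest log2 fold change of all, -2.30 (SE 0.55, limma adjusted p = 0.000293), was that of CTD-2334D19.1, at 31.9 and 33.7 in siCTL and at 3.30 and 11.5 in siG3BP1. It rested on 95 reads in siCTL and 17 in siG3BP1, 3 of them in siG3BP1 A, a level 4.13-fold lower with a 95% counting interval (exact binomial) of 2.45-fold to 7.38-fold. After GC correction its log2 fold change was -1.02.

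LINC01963 on chromosome 2, 10742 bp from XRCC5, which encodes a subunit of the Ku complex of DNA repair, was at 219.5 and 219 under siCTL and at 51.7 and 81.9 under siG3BP1. The siCTL libraries were nearly equal, the siG3BP1 libraries were clearly lower, and the log2 fold change was -1.74 (SE 0.35, limma adjusted p = 3.13e-05), or -1.17 after GC correction (limma adjusted p = 0.0628). LINC00641 was at 59.1 and 79.1 in siCTL and at 15.4 and 23.8 in siG3BP1, a log2 fold change of -1.81 (SE 0.43, limma adjusted p = 0.000306), or -0.79 after GC correction. PWAR6, a transcript of the imprinted Prader-Willi region, was at 40.7 and 43.5 in siCTL and at 9.90 and 13.1 in siG3BP1 (log2 fold change -1.84, SE 0.49, limma adjusted p = 0.00107). PWAR6 has no Gencode 44 gene model here, so it has no GC-corrected value. CTD-2541J13.1 (-1.98) and RP11-53O19.3 (-1.94), with 36.1% and 35.2% GC, complete the 10 largest falls, and were at -0.68 and -0.63 after GC correction. Of these falls, CTC-444N24.8, CTD-2334D19.1, CASC15, LINC00641, PWAR6, CTD-2541J13.1 and RP11-53O19.3 had a mean under 20 in siG3BP1. Those members reached the minimum mean only through siCTL, where they were high.

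The 10 largest rises were spread over ranks 37 to 181 of the 210 members by mean. Among them, RP11-527D7.1, LINC00973, GS1-124K5.4, LINC01547 and RP11-1275H24.1 had a mean under 20 in siCTL. Those members reached the minimum mean only through siG3BP1, where they were high. RP11-527D7.1 on chromosome 1 was at 16.0 and 7.35 normalized reads under siCTL and at 59.4 and 37.7 under siG3BP1. The siG3BP1 libraries were both above siCTL, a rise of 2.07 (SE 0.48, limma adjusted p = 0.000233), and this member has no GC value. RP11-879F14.2 on chromosome 18, the most abundant of the 10, was at 81.4 and 58.8 in siCTL and at 290.3 and 139 in siG3BP1 (log2 fold change 1.53, SE 0.35, limma adjusted p = 0.000214, or 1.62 after GC correction). RP11-54A9.1 on chromosome 12, of the 10 highest means, was at 350.4 and 227 in siCTL and at 769.6 and 409.7 in siG3BP1, a rise of 0.99 (SE 0.34, limma adjusted p = 0.00924), or 1.46 after GC correction. In both, siG3BP1 A was far above siG3BP1 B.

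LINC00973 on chromosome 3 was at 18.4 and 9.81 under siCTL and at 42.9 and 37.7 under siG3BP1. With 37.7% GC it was the only one of 20 members in the lowest GC class that was called higher (1.55, SE 0.48, limma adjusted p = 0.00462). In that range the median of all tested genes was -1.29. After GC correction it had the largest value of all members, 2.80 (limma adjusted p = 0.0628). The remaining rises were AC106869.2 (1.36), GS1-124K5.4 (1.43), LINC01547 (1.38), RP4-794I6.4 (1.32) and RP11-1275H24.1 (1.31), the last of which overlaps another member, RP11-1275H24.3. NAV2-AS6 (1.56, named as in Gencode 44) lies within NAV2 and FLJ20021 (1.48) overlaps PPP3CA, so their levels are uncertain. After GC correction AC106869.2 was at 1.17, GS1-124K5.4 at 0.83, LINC01547 at 0.61, RP4-794I6.4 at 0.61, RP11-1275H24.1 at 0.37, NAV2-AS6 at 1.62 and FLJ20021 at 0.77.

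Each lincRNA was set beside its nearest tested protein-coding gene, which need not share its locus. Of the 210 members 128 had a positive log2 fold change, as had 5807 of 11914 tested protein-coding genes. The agreement that such shares alone would give was not computed. The member and its nearest tested protein-coding gene had log2 fold changes of the same sign in 117 of 210 pairs (55.7%), with a Pearson correlation of 0.26 across the pairs, which share libraries and, being neighbours, base composition. The share was 66.7% for the 33 members that overlap a coding gene, 59.5% for 84 with a gap of up to 10000 bp and 48.4% for 93 farther away. In 40 pairs both genes passed the test, 24 of them in the same direction. Where both start sites lay within 1000 bp on opposite strands, 31 of 55 pairs had the same sign.

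**Figure D4:**
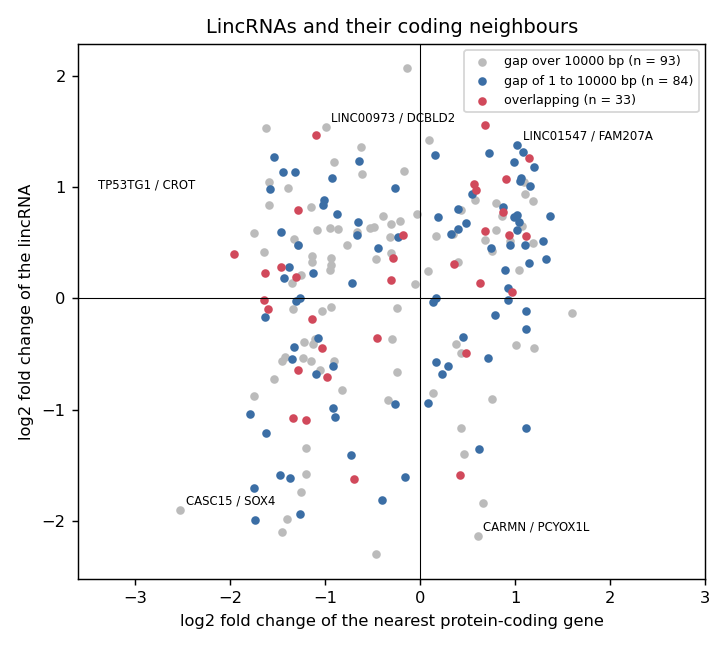
Log2 fold change (siG3BP1 over siCTL) of each of the 210 lincRNAs against that of its nearest tested protein-coding gene, coloured by the distance between the loci. Points fill all 4 quadrants, and 117 of 210 pairs have the same sign.

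TP53TG1 and CROT are such a divergent pair, 166 bp apart on chromosome 7, and moved in opposite directions. CROT, a peroxisomal carnitine octanoyltransferase, was at 421 and 491 normalized reads under siCTL and at 109.9 and 208 under siG3BP1, all below siCTL, a log2 fold change of -1.58 (limma adjusted p = 7.18e-05) where that of TP53TG1 was 0.99. The exonic GC contents are 36.7% for CROT and 41.8% for TP53TG1. LINC01547 and FAM207A, 97 bp apart, both rose, by 1.38 and 1.02 (limma adjusted p = 0.00855 and 0.00989). By DESeq2 LINC01547 did not pass (adjusted p = 0.0524). CASC15 and SOX4, a transcription factor gene 66153 bp away, both fell. SOX4 was at 1272 and 2902 under siCTL and at 145 and 763 under siG3BP1, a log2 fold change of -2.53 (limma adjusted p = 5.90e-11), and B was above A in both groups, as for CASC15. LINC01963 and XRCC5 both fell, by 1.74 and 1.26 on the log2 scale, whereas LINC00973 rose and its neighbour DCBLD2, a membrane receptor gene, fell (limma adjusted p = 0.00765). CARMN fell beside PCYOX1L at 0.60, which did not pass (limma adjusted p = 0.115).

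Promoters were compared for the 94 members with 1 matching RefSeq entry (250 bases before to 50 after the start, GRCh38.p14). Their median GC content was 65.3%, against 58.7% over all 35116 promoters, and it was 56.7% in 9 members that fell, 60.3% in 18 that rose and 66.7% in those not called. Motifs were searched as exact letters on both strands. TATAAA (the TATA box) was in 5.32% of member promoters and 11.5% of all, CCAAT in 42.6% and 34.6%, GGGCGG (an Sp1 box) in 54.3% and 45.0%, and TGACTCA (an AP-1 site) in 10.6% and 4.95%. TGACTCA was in 4 of 18 promoters of members that rose and in 1 of 9 of members that fell. A match is a string of letters, and these counts were not tested.

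Promoters of 3 members whose change went against the trend with GC content, or that of a close neighbour, are printed with these motifs in capitals. CARMN has 2 CCAAT. TP53TG1, whose upstream bases lead into CROT, has 2 CCAAT (as ATTGG) and 3 GGGCGG (as CCGCCC), and LINC00973 has 1 TGACTCA (as TGAGTCA).
CARMN chr5:149406595-149406894, + strand: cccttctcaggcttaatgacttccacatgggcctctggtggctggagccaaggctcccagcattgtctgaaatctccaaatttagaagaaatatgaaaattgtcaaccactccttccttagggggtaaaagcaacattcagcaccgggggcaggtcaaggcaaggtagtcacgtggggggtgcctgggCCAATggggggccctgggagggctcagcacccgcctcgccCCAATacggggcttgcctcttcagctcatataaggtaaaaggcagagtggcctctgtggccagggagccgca
TP53TG1 chr7:87345443-87345742, - strand: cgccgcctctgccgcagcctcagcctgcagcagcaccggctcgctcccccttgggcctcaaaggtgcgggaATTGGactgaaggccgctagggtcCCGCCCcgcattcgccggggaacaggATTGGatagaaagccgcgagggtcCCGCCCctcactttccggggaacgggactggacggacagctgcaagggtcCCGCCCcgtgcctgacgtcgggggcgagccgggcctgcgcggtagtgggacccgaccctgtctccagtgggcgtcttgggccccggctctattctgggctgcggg
LINC00973 chr3:98980805-98981104, + strand: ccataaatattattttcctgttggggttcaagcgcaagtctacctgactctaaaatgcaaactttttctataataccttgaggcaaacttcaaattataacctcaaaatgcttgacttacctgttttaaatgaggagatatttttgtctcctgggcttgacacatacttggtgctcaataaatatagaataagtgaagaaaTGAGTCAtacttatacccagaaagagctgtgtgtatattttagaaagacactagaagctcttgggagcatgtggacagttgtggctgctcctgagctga

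By gene structure, the calls were counted without a test. Of 58 members whose exons form 1 block, 18 fell and 9 rose (15.5%), and of 139 with several blocks, 10 fell (7.19%) and 27 rose (19.4%), against 30.5% and 25.9% of all tested genes. The share that fell among members with 1 block was thus near that of all tested genes. The median log2 fold change was 0.28 and 0.36 in these groups, their median exonic GC content 50.5% and 47.2%. Longer members tended to be lower, with a Spearman rho of -0.25 between log2 fold change and exonic length across 197 members and of -0.32 across 13350 tested genes. Of the 70 most abundant members 10 fell and 19 rose, and of the 70 least abundant 14 fell and 7 rose. The deposited category was lincRNA alone for 176 members, and 26 also carried retained_intron. Gencode 44 lists 190 members as lncRNA and 1, AC093323.3, as protein-coding. The minimum mean itself was close to several members. ENSG00000274021 (20.03), CCDC18-AS1 (20.07) and CTD-2334D19.1 (20.10) lay just inside, and RP11-141B14.1 (19.92), RP5-1198O20.4 (19.80) and RP11-46D6.1 (19.65) just outside. Of all members, 11 had under 10 reads in some library.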

How the data were processed

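The authors trimmed reads with Trimmomatic 0.35, aligned them with STAR to GRCh38 with a Gencode annotation, and normalized counts with DESeq2 1.22.1. They also obtained TPM or FPKM values with RSEM. The submitters' notes further name TopHat2 2.0.10, mm10 and GRCm38, without a role. The deposited values are a signal, reads divided by a size factor per library: 100% came out as whole reads at a tolerance of 1e-06, and libraries hold 16944404 to 22745000 of them. The deposited columns of the authors' own comparison (means, fold changes, p-values) were not used. Genes with a mean of at least 10 were fitted with limma 3.58.1 (R 4.3.3, mean-variance trend) on log2(value + 0.5), two-sided. Adding 0.5 shrinks the log2 fold changes of low genes. A fitted change, a difference of mean logs, can still exceed that of pooled reads, as it did for CTD-2334D19.1 (4.13-fold pooled). edgeR 4.0.16, which called 7443 genes, and DESeq2 1.42.0 on recovered reads were alternatives, beside other pseudocounts, filters and scalings, GC and length corrections (loess, span 0.3), a replicate block and each library left out. Exonic GC content came from Gencode 44, a later release than the authors', and 83 members have equal coordinates there. The chi-square per gene between libraries A and B, 1 under sampling noise, was 30.4 in siCTL and 86.5 in siG3BP1. The named genes are the 10 highest means, the 10 largest falls and rises past the threshold without overlap, all list members, and the rows around the minimum mean. Members and lists were chosen with earlier results of these data known. The fit was also run on simulated data in which far fewer genes changed than were called here, so that run does not check these calls.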

Additional observations from a re-analysis of the deposited data

How the results depend on the processing

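Calls depended on libraries and scaling. Against 31 lincRNAs lower and 37 higher, a minimum mean of 50 (97 members fitted) gave 13 and 23, DESeq2 19 and 21, quantile normalization 22 and 61 (median log2 fold change 0.56), and the GC correction 0 and 0. With a pseudocount of 5 the counts were 32 and 39, without a filter 24 and 26, by edgeR 34 and 30, and with the length correction 24 and 34. Leaving out 1 library gave 0 to 46 lower and 0 to 55 higher, with a median from 0.23 to 0.38. Of all genes fitted, 63.0% were called at a minimum mean of 50, 49.9% by DESeq2 and 54.1% after quantile normalization. The GC correction called 1 gene, or 0.00749%. The share was 56.6% with a pseudocount of 5, 25.2% without a filter, 55.5% by edgeR (7443 genes) and 47.7% with the length correction. None of the 68 members called was called in the opposite direction under any setting run.

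The letters A and B were also used as a block. Same-letter libraries correlated at 0.30 (0.48 after GC correction) in their deviations from the group means, but only 2 pairs exist and the labels do not say what the letters mark, so they were not taken to pair the libraries. The replicate block gave 32 lower and 36 higher, beside 45.0% of all tested genes called. With it 5 of the 37 rises were lost, among them CYTOR (limma adjusted p = 0.0924) and LRRC75A-AS1 (limma adjusted p = 0.106). The GC correction with replicate block gave 19 lower and 52 higher, where the GC correction alone gave none, beside 29.1% of all tested genes called. CARMN (limma adjusted p = 1.40e-22), TP53TG1 (3.25e-18) and LINC00973 (5.51e-11) passed there, NORAD did not (0.0506), and MIR100HG, lower and not called on the deposited values, was called higher (0.00694).

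The GC correction turned the sign of 47 members. Of the 68 called, 3 turned, namely DUBR to 0.32, RP5-1085F17.3 to 0.12 and RP11-352M15.2 to 0.19, all of them lower on the deposited values. Under the GC correction, with or without the block, MIR100HG was at 0.56, LINC00467 at 0.67, BAIAP2-AS1 at -0.19, MIRLET7BHG at -0.57 and LINC01138 at -0.057. Under the length correction MIR100HG was at 0.16 and LINC00511 at 0.67, and quantile normalization gave LINC00511 0.18. With 1 library left out LINC00511 ranged from -0.41 to 0.35 and MIR4458HG from -0.13 (without siG3BP1 B) to 0.64. The cause was not tested.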

Other observations

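LincRNAs just too scarce to be members were also in the fit. Of 130 with a mean of 10 to 20 and the same exclusions, 12 were lower (9.23%) and 11 were higher (8.46%) in siG3BP1 by limma at an adjusted p under 0.05, against 30.5% and 25.9% of all tested genes, with a median log2 fold change of 0.42 and 0.20 after GC correction. Their standard errors ran from 0.50 to 0.72 on the log2 scale. MIAT and MIATNB, overlapping members on chromosome 22, had log2 fold changes of -0.90 and 0.43, neither past the test.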
